A study of Mus musculus with 54 samples.

Results

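The genes followed here build the piRNA machinery and the germ granules of male germ cells: Piwil1, Piwil2, Piwil4, Ddx4, Tdrd1, Tdrd5, Tdrd6, Tdrd7, Tdrd9 and Mael. They were taken by symbol from both RNA count tables and are 10 of the 23284 genes listed there. All 10 were found in each table, and their mm9 loci were searched in 7 lists of ChIP-seq peaks. The mice were C57BL/6 males of 3 months with 4 genotypes of the paralogous zinc finger genes Ctcf and Boris (Ctcfl): wild type (WT), CTCF HET (Ctcf+/-), BORIS KO (Boris-/-) and the compound mutant CM (Ctcf+/- Boris-/-, labelled DKO). Each preparation pooled 4 mice, so a value describes a pool and not an animal. RNA came from 12 germ cell-enriched whole testis preparations (rRNA-depleted RNA), and 12 round spermatid (RS) and 11 spermatocyte (SC) libraries (poly(A) RNA) came from cells purified by elutriation and sorting. Every group had 3 libraries except WT SC, which had 2. The CTCF HET and CM mice keep 1 working Ctcf allele in their diploid cells, whereas round spermatids are haploid.

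Piwi proteins bind piRNAs, short RNAs that guide them to transposon and other transcripts, and in the testis they work in the fetal germ line and the pachytene spermatocyte. Many of their partners sit in germ granules: the intermitochondrial cement of spermatocytes and the chromatoid body of round spermatids. Tudor domain proteins hold these granules together by binding methylated arginines on Piwi proteins, and RNA helicases such as DDX4 and TDRD9 act in the same particles.

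The Piwi genes were Piwil1 (MIWI, the partner of pachytene piRNAs) at chr5:129242121-129261349, Piwil2 (MILI, which works from the fetal gonocyte to the round spermatid) at chr14:70772287-70828901, and Piwil4 (MIWI2, the nuclear Piwi protein of fetal gonocytes) at chr9:14500674-14545177. The helicase genes were Ddx4 (the mouse Vasa homologue) at chr13:113388541-113442518 and Tdrd9 at chr12:113209770-113307065. The remaining Tudor genes were Tdrd1 at chr19:56900699-56944502, Tdrd5 at chr1:158185426-158233795, Tdrd6 at chr17:43752284-43767248 and Tdrd7 at chr4:45978206-46047633. Tdrd1 is a partner of MILI, and Tdrd5, Tdrd6 and Tdrd7 are needed to form or keep the chromatoid body. Mael (Maelstrom, at chr1:168131516-168168875) is a granule protein of transposon silencing and piRNA production. Piwil1, Tdrd1, Tdrd7 and Tdrd9 lie on the plus strand and the other 6 on the minus strand.

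The sequences below are the 300 bases about the summit of 3 WT CTCF peaks (mm9, strand of the gene, which is the plus strand in each case). Tdrd7 and Tdrd1 are shown because theirs were the peaks within 1 kb of an annotated start, and Piwil1 because its peak lies just upstream of the Piwi gene with the largest difference between the cell types. Capitals mark a match to CCNNNAGNNGGC, the core of the CTCF motif, searched on both strands.
Tdrd7, chr4:45984908-45985207: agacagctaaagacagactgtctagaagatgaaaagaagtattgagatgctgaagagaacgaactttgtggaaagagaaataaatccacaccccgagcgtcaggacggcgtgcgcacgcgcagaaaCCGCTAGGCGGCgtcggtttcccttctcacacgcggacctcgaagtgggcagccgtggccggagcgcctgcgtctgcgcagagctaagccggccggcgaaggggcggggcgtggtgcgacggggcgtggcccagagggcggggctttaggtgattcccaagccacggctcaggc
Tdrd1, chr19:56900486-56900785: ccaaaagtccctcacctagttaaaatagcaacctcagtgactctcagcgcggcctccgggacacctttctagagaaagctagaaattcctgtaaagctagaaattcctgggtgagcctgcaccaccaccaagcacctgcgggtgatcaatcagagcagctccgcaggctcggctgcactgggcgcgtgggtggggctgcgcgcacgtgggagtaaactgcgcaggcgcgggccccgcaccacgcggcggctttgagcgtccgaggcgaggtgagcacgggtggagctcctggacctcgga
Piwil1, chr5:129239894-129240193: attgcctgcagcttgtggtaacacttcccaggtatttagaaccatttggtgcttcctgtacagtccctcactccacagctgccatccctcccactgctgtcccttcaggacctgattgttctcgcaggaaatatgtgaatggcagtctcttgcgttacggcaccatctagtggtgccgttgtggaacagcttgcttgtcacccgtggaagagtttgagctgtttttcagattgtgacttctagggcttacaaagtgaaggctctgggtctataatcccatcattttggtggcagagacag
The Tdrd7 window held 1 match, 17 bases from the summit, and the other 2 windows held none. In windows of the same length the letters were found at 50.8% of all WT CTCF peaks, 62.1% of CM CTCF peaks, 55.4% of WT BORIS peaks and 10.5% of annotated gene starts. A window without the letters says nothing about whether the factor was bound.

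Libraries held 10437683 to 42055813 counts in whole testis and 47740650 to 98545423 counts in purified cells. In WT all 8 round spermatid markers (Acrv1, Tnp1 and others) were higher in every RS than in every SC library, with a summed level of 970 to 1060 against 36.5 to 36.8 CPM, the count scaled to the TMM-adjusted size of the library. Of 8 spermatocyte markers, 3 were higher in every SC library and 3 in every RS library, and their sums were 1880 to 2390 CPM in SC and 2510 to 2680 CPM in RS. Smc1b alone was at 1830 to 1880 CPM in WT RS and at 742 to 923 CPM in WT SC. In purified cells the sum of these markers therefore does not measure spermatocyte content, and below it only describes a difference between libraries. Ctcf was 40.9 to 45.1 CPM in WT testis, 22.9 to 30.3 in CTCF HET and 24.3 to 26.8 in CM, but in RS it was 38.4 to 171 CPM in CM against 28.4 to 48 in WT, and in SC 29.9 to 49.5 in CTCF HET against 33.6 to 36 in WT. Rltpr, the gene that follows Ctcf on the chromosome, was at 28.6 to 104 CPM in every CTCF HET and CM library and at 0.581 to 2.94 CPM in every WT and BORIS KO library, so the libraries labelled Ctcf+/- stood apart from the others in all 3 preparations. Ctcfl still had 149 to 184 counts a library in BORIS KO RS, so these gene counts do not check the Boris deletion. BORIS KO, and Boris-/- in CM, therefore mean the libraries so labelled. CM RS replicate 2 stood apart, with spermatogonial markers summing to 362 CPM.

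Expression differed widely among the genes. On CPM per kilobase of exon (CPM per kb, mean ± SD), Mael was the highest in WT RS at 1246 ± 190 (n = 3) and in WT SC at 1568 ± 27.6 (n = 2). In RS, Ddx4 followed at 528.2 ± 27.1, Tdrd6 at 188.2 ± 30 and Tdrd7 at 80.28 ± 9.85. Then came Tdrd9 at 13.12 ± 2.21 and Piwil1 at 12.71 ± 1.02, whose libraries overlapped, and Tdrd1 at 6.739 ± 0.319. Piwil2 at 4.203 ± 0.502 and Tdrd5 at 1.15 ± 0.133 stood lowest of the detected genes. The order was different in SC. Piwil1, at 399.8 ± 9.26, reached the level of Ddx4 at 400.2 ± 27.6, and their libraries overlapped. Tdrd6 was at 252.7 ± 4.67, Tdrd1 at 104.4 ± 3.82, Tdrd7 at 82.7 ± 0.00707, Tdrd5 at 52.34 ± 0.94, Tdrd9 at 37.11 ± 1.12 and Piwil2 at 33.44 ± 1.38 CPM per kb. In WT whole testis, Mael (576.2 ± 165) and Tdrd6 (245.2 ± 17.7) led, and Ddx4 (185.8 ± 9.19) overlapped with Tdrd7 (160.7 ± 30), which was higher per kb than Piwil1 (83.69 ± 6.85). Tdrd9 was at 43.62 ± 6.9, Piwil2 (27.45 ± 0.881) overlapped with Tdrd1 (26.06 ± 2.9), and Tdrd5 was at 12.67 ± 0.506 CPM per kb.

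**Figure D1:**
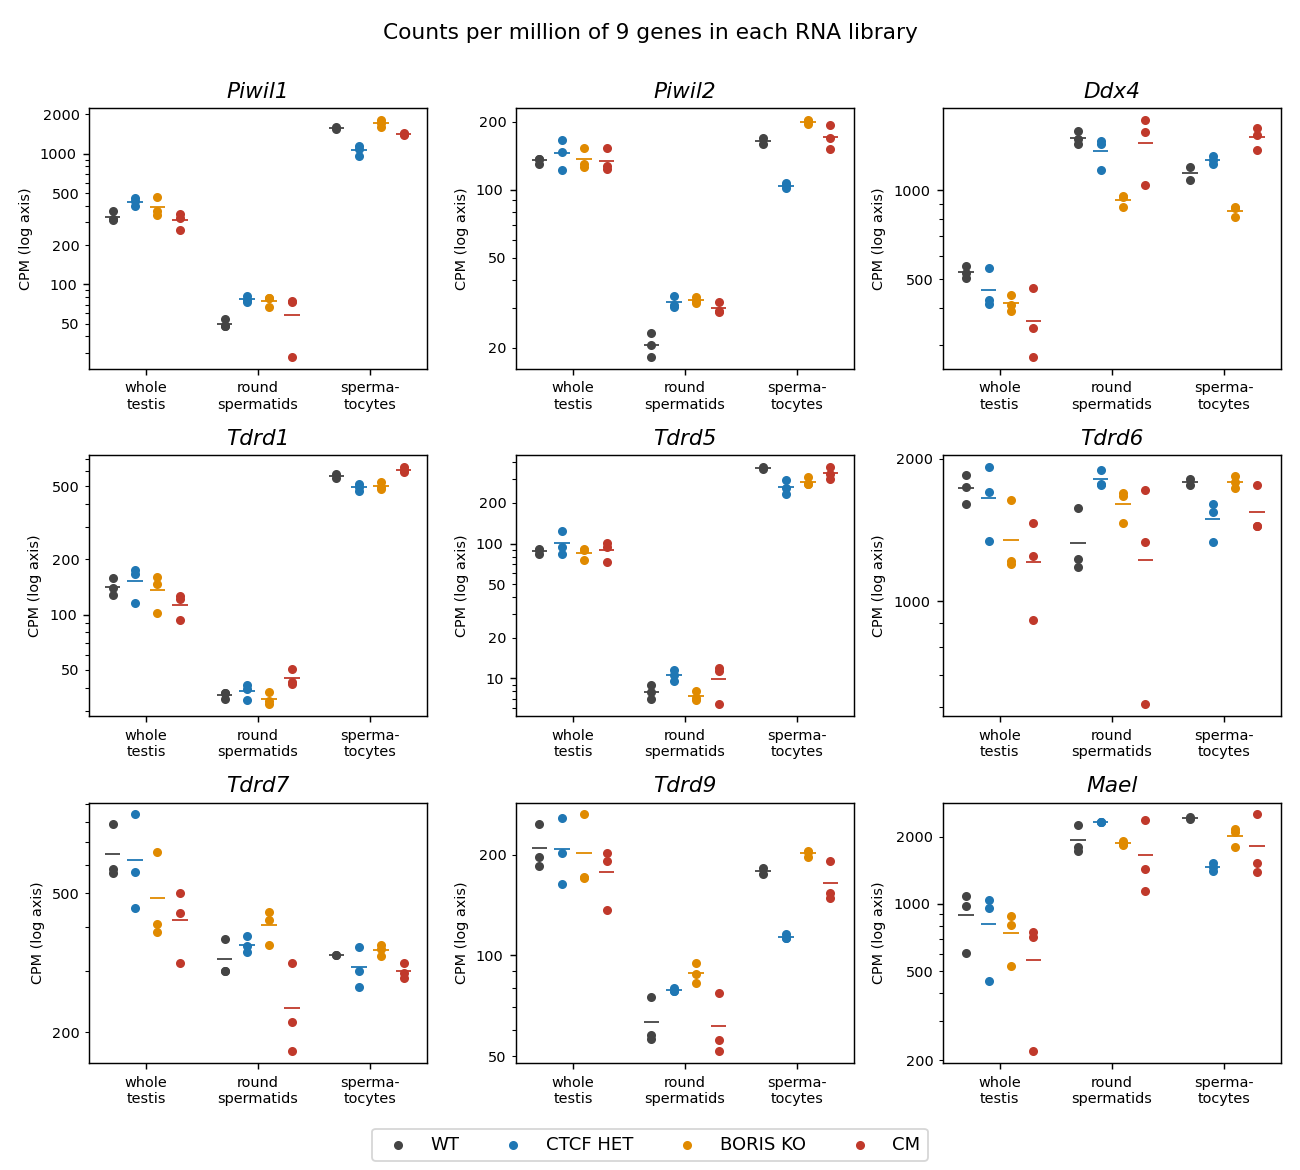
CPM (log axis) of 9 genes in each RNA library. Points are libraries, horizontal bars are group means, colors are genotypes, and the 3 clusters are whole testis, round spermatids and spermatocytes. Tdrd5, Piwil1, Tdrd1, Piwil2 and Tdrd9 lie lower in round spermatids than in spermatocytes in every genotype, whereas Ddx4, Tdrd6, Tdrd7 and Mael lie near the same level in both. Whole testis was counted in a separate table, so its level is not tested against the others.

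Piwil4 was close to the detection limit. It had 0 counts in each of the 3 WT RS libraries, which allows up to 0.0333 to 0.0616 CPM by counting error, 1 and 2 counts in the WT SC libraries, and 3 to 12 counts in WT whole testis. The highest counts were in CM whole testis, with 83, 6 and 28 counts (2.008, 0.3659 and 2.203 CPM). The spermatogonial markers summed to 405, 118 and 241 CPM in the same libraries and to 54.9 to 71.7 CPM in WT whole testis, and their part in the Piwil4 counts was not tested. BORIS KO whole testis had 22, 14 and 17 counts (0.6295, 1.123 and 0.9356 CPM), all above the WT libraries at 0.3394, 0.1988 and 0.5334 CPM, but the difference was not called (log2 fold change 1.34 ± 0.47, edgeR adjusted p = 0.24). Piwil4 passed the low-count filter in 5 of the 19 comparisons and was called in none. In all counts below, it is the member without a test unless it is named.

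The first comparison set round spermatids against spermatocytes of the same genotype. Tdrd5, Piwil1, Tdrd1, Piwil2 and Tdrd9 fell in RS in all 4 genotypes, whereas Ddx4, Tdrd6, Tdrd7 and Mael differed by at most 0.62 on the log2 scale. A gene was called at an adjusted p below 0.05 (edgeR quasi-likelihood test, adjusted over all genes). In WT, 7 of the 9 genes tested were called, 1 higher and 6 lower, where 70% of all genes were called and 34.2% were lower. The median log2 fold change was -1.41 over the genes and 0.02 over all genes tested. In CTCF HET 6 were called, 5 of them lower (background 53.6%, lower 23.9%), in BORIS KO 8, 6 of them lower (83.3%, lower 41.6%), and in CM 5 of the 10 tested, all lower (27.9%, lower 11.9%). The medians were -0.57, -1.17 and -0.96, against 0.27, 0 and 0.13 over all genes. The total of RNA per cell was not measured, so a lower share of a library is not a lower number of transcripts per cell.

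Tdrd5 had the largest difference. It was at 7.973, 7.064 and 8.91 CPM in WT RS and at 367.7 and 358.5 CPM in WT SC, a log2 fold change of -5.41 ± 0.13 (SE; adjusted p = 1.3e-07). The log2 fold changes in CTCF HET, BORIS KO and CM were -4.67 ± 0.15, -5.26 ± 0.09 and -5.00 ± 0.28. No library of one cell type reached the range of the other.

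Piwil1 was at 54.74, 47.8 and 47.79 CPM in WT RS and at 1551 and 1603 CPM in WT SC, a 29.5-fold difference (log2 fold change -4.88 ± 0.1, adjusted p = 1.2e-07). The difference was 14.2-fold in CTCF HET, 22.4-fold in BORIS KO and 23.1-fold in CM. The CM value includes the RS library that stood apart, in which Piwil1 was at 27.84 CPM against 74.72 and 73.76 CPM in the other 2 libraries. In each genotype every RS library was far below every SC library.

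Tdrd1, the Tudor partner of MILI, was at 34.67, 37.7 and 37.67 CPM in WT RS and at 582.9 and 553.7 CPM in WT SC (log2 fold change -3.86 ± 0.1, adjusted p = 1.4e-07). Its log2 fold changes in the 3 mutants were -3.72, -3.81 and -3.68, the narrowest range among the 5 genes. Piwil2 was at 23.14, 20.6 and 18.21 CPM in WT RS and at 159.5 and 169.1 CPM in WT SC (log2 fold change -2.90 ± 0.12, adjusted p = 9.7e-07), and at -1.76 ± 0.09, -2.61 ± 0.05 and -2.44 ± 0.2 in CTCF HET, BORIS KO and CM. Tdrd9 fell by 1.41 ± 0.13 on the log2 scale in WT (adjusted p = 5.8e-05), by 0.57 ± 0.07 in CTCF HET, by 1.17 ± 0.05 in BORIS KO and by 1.34 ± 0.21 in CM. All 5 genes stayed called in all 4 genotypes under each other scaling, filter, tool, offset, block and left-out library that was run. With a fold above 2 also required, Tdrd9 in CTCF HET, at 1.49-fold, was not called.

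The other 4 genes changed little and not in a common direction. Ddx4 was at 1587, 1434 and 1493 CPM in WT RS and at 1196 and 1085 CPM in WT SC (log2 fold change 0.5 ± 0.08, adjusted p = 0.0013). Its log2 fold changes were 0.06 in CTCF HET, 0.14 in BORIS KO (adjusted p = 0.019) and 0.01 in CM. Tdrd6 fell by 0.33 ± 0.12 in WT (adjusted p = 0.04) and by 0.13 ± 0.05 in BORIS KO (adjusted p = 0.049), and its values were 0.24 in CTCF HET and -0.28 in CM, which were not called. Tdrd7 was called in BORIS KO (0.26 ± 0.06, adjusted p = 0.0035) and not in WT (0.05), CTCF HET (0.18) or CM (-0.28). Mael was called in CTCF HET, where RS libraries at 2337, 2321 and 2314 CPM lay above SC libraries at 1470, 1403 and 1524 CPM (0.62 ± 0.07, adjusted p = 0.00061), and its values in WT, BORIS KO and CM were -0.24, -0.09 and -0.06. Some of these calls changed with the GC offset, a refit that removes each library's trend on exon GC content. With it Ddx4 was not called in WT (-0.07, adjusted p = 0.69) or BORIS KO (0.07, adjusted p = 0.37), nor was Tdrd6 (-0.26, adjusted p = 0.076 in WT, and -0.15, adjusted p = 0.082 in BORIS KO). Mael was then called in WT (-0.46, adjusted p = 0.028) and Tdrd7 in CTCF HET (-0.23, adjusted p = 0.047), while Tdrd7 in BORIS KO (0.22, adjusted p = 0.027) and Mael in CTCF HET (0.44, adjusted p = 0.00071) stayed called.

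**Figure D2:**
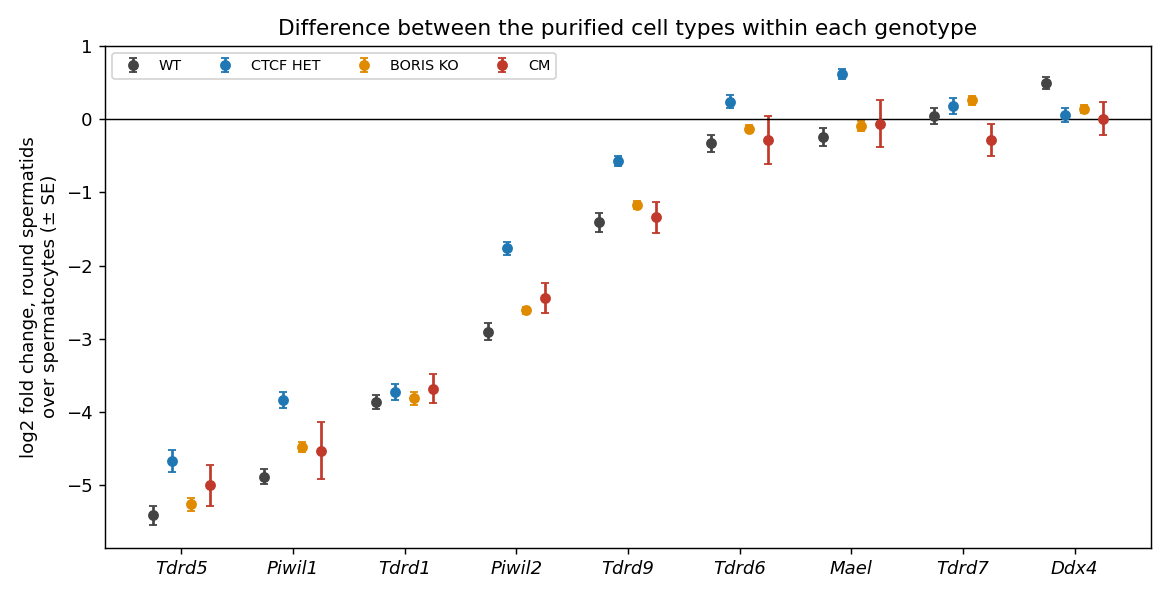
Log2 fold change of round spermatids over spermatocytes (± SE) for 9 genes in the 4 genotypes, from the edgeR fit within each genotype. Tdrd5, Piwil1, Tdrd1, Piwil2 and Tdrd9 lie below 0 in all 4 genotypes, and the other 4 genes lie between -0.33 and 0.62.

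Patterns were also compared over the 12 group means of log2 CPM, each table centered on its own mean. Piwil1, Piwil2, Tdrd1, Tdrd5 and Tdrd9 correlated with each other at 0.9 to 1. This is a description: the RS and SC means carry the stage difference that these genes share, and the whole testis means do not. Ddx4 correlated with them at -0.37 to -0.14, and Tdrd6, which also differed little between the cell types, at 0.35 to 0.6. The 3 genes of most similar pattern among 11689 were BC049730, Tmem80 and Chfr for Piwil1 (each r = 0.997), and 4933404O12Rik (0.997), Sipa1l2 (0.995) and Ensa (0.994) for Piwil2. For Ddx4 they were Caprin1 (0.986), Ezh2 (0.973) and Gtf2e2 (0.972).

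The wider pathway was described with 4 further lists of 23 genes, of which Spocd1 was not matched by symbol. Among 12 piRNA pathway factors, 10 were lower and 1 higher in WT RS, 10 and 1 in BORIS KO, 9 and 1 in CTCF HET, and 5 and 0 in CM, with medians of -1.5, -1.56, -1.31 and -1.31 against 0.02, 0, 0.27 and 0.13 over all genes. The share of all genes that was called lower was 34.2% in WT, 41.6% in BORIS KO, 23.9% in CTCF HET and 11.9% in CM. Pld6, the mitochondrial nuclease of piRNA processing, had the smallest p among the lower factors in all 4 genotypes (log2 fold change -3.45 ± 0.13 in WT, 10.2 against 119 CPM, adjusted p = 6.2e-07). Gtsf1, a zinc finger partner of Piwi proteins, was higher in WT RS (0.85 ± 0.09, adjusted p = 0.00013). Among 5 other Tudor and chromatoid body genes, 1 of 5 was lower in WT, 4 in CTCF HET and BORIS KO, and 2 in CM, and with the GC offset 4 were lower in WT. Stk31 had the smallest p (-2.74 ± 0.12 in WT, adjusted p = 1.3e-06). Mybl1, the transcription factor of pachytene piRNA genes, was lower in RS in each genotype (-1.37 ± 0.11 in WT, adjusted p = 2.8e-05). Tex15, a nuclear partner in piRNA-directed silencing and a meiotic recombination gene, was higher in RS in each genotype (418 against 5.53 CPM in WT, log2 fold change 6.34 ± 0.13, adjusted p = 1.2e-07). Btbd18 (listed as Gm13718) was higher in WT and BORIS KO RS, at 2.3 ± 0.39 and 2.53 ± 0.23.

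The second question was whether the genotype changed these genes within a cell type. Here the exon GC content of a gene moved with the fold change across all genes, and its part in each gene's result was not tested beyond one refit. In BORIS KO RS the rank correlation of log2 fold change with GC was 0.71 over 14785 genes, with a median of -0.85 in the lowest and 1 in the highest GC quintile. It was 0.63 in BORIS KO SC, 0.5 in CTCF HET RS, -0.43 in CTCF HET SC, -0.43 in CM SC and -0.01 in CM RS. The refit removed each library's trend on GC as an offset, which also removes any true change that follows GC. Its values are given beside the main ones as the GC offset. Ddx4 has the lowest GC of the genes (41.3%, with 11.7% of genes lower), and Piwil2 sits in the middle (49.2%, with 50.4% lower).

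In CTCF HET RS, 3 of the 9 genes tested rose and none fell, with a median log2 fold change of 0.3 against 0 over all genes. Of all genes, 22.3% were called in either direction, and 42.6% of those calls were higher. With the GC offset 3331 of all 15238 genes tested were called. Piwil1 rose from 54.74, 47.8 and 47.79 CPM in WT to 81.11, 72.76 and 76.47 CPM (1.51-fold, log2 fold change 0.59 ± 0.1, adjusted p = 0.0068; 0.46 and 0.009 with the GC offset). Piwil2 rose from 23.14, 20.6 and 18.21 CPM to 30.98, 34 and 30.27 CPM (0.6 ± 0.12, adjusted p = 0.013; 0.61 and 0.0046 with the GC offset). Every mutant library lay above every WT library for both. Libraries did not overlap in 6 of the 10 genes, and the share over all genes was not computed. Tdrd6 rose by 0.42 ± 0.12 (adjusted p = 0.033; 0.32 and 0.044). Tdrd5 was not called at 0.38 ± 0.15 (adjusted p = 0.095) and was called at 0.59 with the offset (adjusted p = 0.011). The spermatocyte markers summed to 1310 to 1910 CPM in these libraries and to 2510 to 2680 CPM in WT RS, and the round spermatid markers to 709 to 762 against 970 to 1060 CPM. The part of either in these values was not tested.

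In BORIS KO RS, 4 of 9 genes were called (background 55.8%), 3 higher and 1 lower. With the GC offset, which called 5832 of all 15513 genes tested, 1 stayed called. That gene was Piwil2, at 33.61, 32.06 and 31.5 CPM against 18.21 to 23.14 CPM in WT (1.52-fold, log2 fold change 0.61 ± 0.11, adjusted p = 0.0018; 0.64 and 0.0014 with the offset). Ddx4 was at 947.6, 954.4 and 879.2 CPM against 1434 to 1587 CPM in WT, a log2 fold change of -0.74 ± 0.07 (adjusted p = 5.2e-05). With the GC offset its value was 0.09 ± 0.1 (adjusted p = 0.53). Piwil1 moved from 0.54 ± 0.11 (adjusted p = 0.002) to 0.23 (0.085), and Tdrd9 from 0.45 ± 0.12 (adjusted p = 0.012) to 0.3 (0.053). The spermatocyte markers summed to 757 to 804 CPM in these libraries and to 2510 to 2680 CPM in WT RS, and their part in these values was not tested.

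In CTCF HET SC, set against the 2 WT SC libraries, 4 of 9 genes fell. The median log2 fold change was -0.35 against -0.09 over all genes. Of all genes, 15.5% were called in either direction, and 43.6% of those calls were higher. With the GC offset 986 of all 13648 genes tested were called. Mael was at 1470, 1403 and 1524 CPM against 2393 and 2453 CPM in WT (-0.61 ± 0.08, adjusted p = 0.0065; -0.63 and 0.014 with the offset). Piwil2 was at 101.5, 106.9 and 104.5 CPM against 159.5 and 169.1 CPM (-0.54 ± 0.09, adjusted p = 0.012; -0.41 and 0.036). Libraries of the mutant and WT did not overlap in 9 of the 10 genes, Mael and Piwil2 among them. The share of all genes without overlap was not computed. Both Mael and Piwil2 stayed called with the offset. Tdrd9, at 115.9, 112.6 and 112.9 CPM against 174.7 and 182.3 CPM, fell by 0.53 ± 0.09 (adjusted p = 0.011), and Piwil1 by 0.45 ± 0.1 (adjusted p = 0.024). With the offset these were -0.31 (adjusted p = 0.064) and -0.14 (0.45). The CTCF HET SC libraries detected 12018 to 13406 genes against 17631 to 17683 in WT SC. Their spermatocyte markers summed to 2850 to 3260 against 1880 to 2390 CPM and their round spermatid markers to 50.4 to 71.1 against 36.5 to 36.8 CPM. The part of these differences in the values was not tested.

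In BORIS KO SC, 6 of 9 genes were called (background 57.2%), 2 higher and 4 lower, with a median of 0 against 0.02 over all genes. With the GC offset 6015 of all 14338 genes tested were called. Piwil2 rose to 202.6, 195.7 and 203.3 CPM from 159.5 and 169.1 CPM (1.22-fold, log2 fold change 0.29 ± 0.06, adjusted p = 0.0018; 0.31 and 0.0016 with the offset), and it alone stayed called. Ddx4 was at -0.42 ± 0.07 (adjusted p = 0.00021; 0.06 and 0.41 with the offset), Tdrd5 at -0.33 ± 0.07 (adjusted p = 0.0014; -0.03 and 0.77) and Mael at -0.27 ± 0.08 (adjusted p = 0.013; -0.08 and 0.4). Tdrd1 was at -0.18 ± 0.07 (adjusted p = 0.035; -0.11 and 0.17) and Tdrd9 at 0.18 ± 0.06 (adjusted p = 0.027; 0.09 and 0.17). The spermatocyte markers summed to 1180 to 1270 CPM in BORIS KO SC and to 1880 to 2390 CPM in WT SC, and the round spermatid markers to 44.3 to 62.7 against 36.5 to 36.8 CPM. The part of either in these values was not tested.

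**Figure D3:**
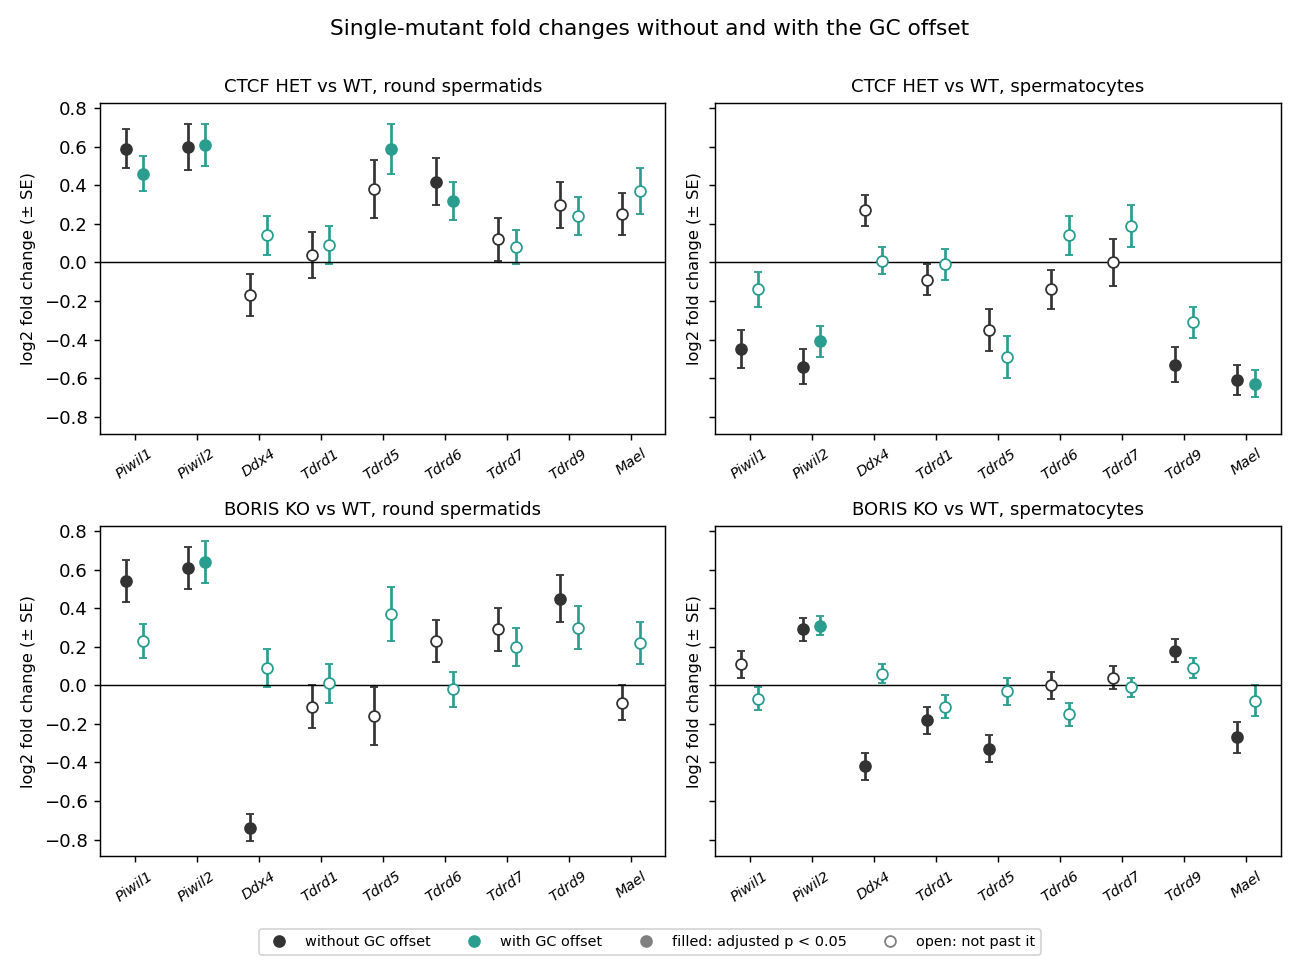
Log2 fold change against WT (± SE) of 9 genes in round spermatids and spermatocytes of the CTCF HET and BORIS KO mice, without and with the GC offset. Filled points pass an adjusted p of 0.05. Piwil2 is filled with the offset in all 4 panels, higher in 3 and lower in CTCF HET spermatocytes, and Ddx4 moves from -0.74 to 0.09 in BORIS KO round spermatids. Panels of the same cell type share their WT libraries, so they are not independent.

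In CM no gene was called in RS (background 0.00654%) or in SC (background 0.604%), at an unadjusted p below 0.05 in 1 gene in each. Other tools differed in SC, where DESeq2 called 1. Piwil2 in CM RS was at 29.12, 31.99 and 28.65 CPM, all above the WT libraries, with a log2 fold change of 0.59 ± 0.21 (adjusted p = 0.19), close to its value in CTCF HET and BORIS KO RS. Those comparisons share the same WT RS libraries. Ddx4 in CM SC was at 1364, 1540 and 1627 CPM against 1196 and 1085 CPM in WT (0.4 ± 0.1, adjusted p = 0.078; 0.03 and 0.82 with the offset). Mael spread widely among the CM SC libraries, at 2515, 1383 and 1524 CPM. The round spermatid markers summed to 324 to 589 CPM in CM RS and to 970 to 1060 CPM in WT RS, and their part in these values was not tested. The spermatocyte markers summed to 3200 to 5430 CPM in CM SC and to 1880 to 2390 CPM in WT SC. The CM SC libraries detected 14145 to 16666 genes against 17631 to 17683 in WT SC. The part of these differences was not tested either.

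CM was also set against BORIS KO, which differ in the Ctcf allele. In RS none of 9 genes was called (background 23.2%), at an unadjusted p below 0.05 in 3, and DESeq2 called 2. The lowest adjusted p was that of Tdrd7, at 315.2, 176.8 and 214.6 CPM in CM against 440.9, 418.5 and 355.9 CPM in BORIS KO (-0.75 ± 0.26, adjusted p = 0.074). In SC, 5 genes were called (background 51.8%), 2 higher and 3 lower, and none with the GC offset. The offset fit called 4835 of all 14292 genes tested. Ddx4 was at 1364 to 1627 CPM in CM and at 814.9, 875 and 873.1 CPM in BORIS KO (0.79 ± 0.09, adjusted p = 0.00054; -0.05 and 0.6 with the offset). Piwil1 fell by 0.31 ± 0.07 (adjusted p = 0.0093; 0.08 and 0.44). The spermatocyte markers summed to 3200 to 5430 CPM in CM SC and to 1180 to 1270 CPM in BORIS KO SC. The CM SC libraries detected 14145 to 16666 genes against 17672 to 17970 in BORIS KO SC. The part of either in these values was not tested.

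The stage dependence of each genotype's effect was tested as an interaction, the effect in RS minus the effect in SC. For CTCF HET, 6 of 9 genes were called (background 33.6%), all with a higher value in RS, and the median was 0.83 against 0.33 over all genes. That all-gene median was -0.03 under RLE scaling. The GC offset fit called 3963 of all 16152 genes tested. Piwil2 differed by 1.23 ± 0.15 (adjusted p = 0.00097; 0.73 and 0.0071 with the GC offset), Mael by 0.96 ± 0.14 (adjusted p = 0.0015; 0.75 and 0.011) and Tdrd5 by 0.83 ± 0.18 (adjusted p = 0.0066; 0.83 and 0.0031). Piwil1 (1.14 ± 0.13), Tdrd9 (0.93 ± 0.15) and Tdrd6 (0.66 ± 0.16) were not called with the offset, at 0.27, 0.24 and -0.14. For BORIS KO, Piwil1 (0.36 ± 0.11, adjusted p = 0.046) and Ddx4 (-0.39 ± 0.09, adjusted p = 0.014) were called (background 13.4%). Neither was called with the offset, at 0.22 and 0.01, where 1285 of all 16519 genes tested were. For CM no gene was called by edgeR or DESeq2 and none had an unadjusted p below 0.05 (background 3.51%). These tests share the WT libraries.

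In whole testis no gene was called in any of the 4 comparisons run, by edgeR or by DESeq2, when libraries were not paired by number. The paired fit is given below. The background was 0.00621% in CTCF HET, 0.0551% in BORIS KO, 25.2% in CM and 0.006% for CM against BORIS KO, and 1, 2, 1 and 0 genes had an unadjusted p below 0.05. In CM the median was -0.33 against 0 over all genes. The libraries of Ddx4, Tdrd1, Tdrd6 and Tdrd7 did not overlap with WT. The share of all genes without such overlap was not computed for any of these comparisons, so a lack of overlap is given as a description. Tdrd7 was at 438.6, 501.1 and 315.8 CPM against 786.4, 584.4 and 570.5 CPM in WT (-0.64 ± 0.27, adjusted p = 0.11). Ddx4 was at 273.9, 467.6 and 341.9 CPM against 557, 526.4 and 504.9 CPM (-0.56 ± 0.26, adjusted p = 0.14). Tdrd6 was at 1249, 1464 and 913.6 CPM against 1851, 1742 and 1601 CPM (-0.53 ± 0.26, adjusted p = 0.16). The values of Piwil1 (-0.11), Piwil2 (-0.02) and Tdrd5 (0) were smaller than their SE. In CTCF HET the libraries of Piwil1 did not overlap with WT, at 437.8, 454.5 and 394.8 CPM against 361.2, 313.3 and 315.7 CPM (0.38 ± 0.15, adjusted p = 1). In BORIS KO those of Ddx4 did not, at 443, 392.8 and 409.3 CPM (-0.34 ± 0.14, adjusted p = 0.27).

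Library numbers paired across genotypes in whole testis, and the fit with the replicate block called Mael in CM, at -0.83 (adjusted p = 0.031), and Tdrd7 in BORIS KO, at -0.44 (adjusted p = 0.045). Over all genes that fit called 7043 of 16378 in CM and 1077 of 16344 in BORIS KO. Mael showed the pairing, because replicate 1 was the lowest in every genotype: 603.8, 979.4 and 1089 CPM in WT, 219.9, 746.9 and 712.1 CPM in CM, 451.2, 958 and 1044 CPM in CTCF HET, and 526, 804.8 and 886.1 CPM in BORIS KO. In the CM testis libraries the Leydig cell markers summed to 1870 to 3800 CPM against 378 to 564 CPM in WT, with none of 6 markers at 0. The Sertoli cell markers summed to 481 to 958 against 182 to 278 CPM, and the spermatogonial markers to 118 to 405 against 54.9 to 71.7 CPM. The round spermatid markers summed to 4100 to 12200 CPM against 13700 to 21500 CPM, and the spermatocyte markers to 243 to 367 against 398 to 469 CPM. The part of cell composition in these values was not tested, and fewer cells of a type cannot be told from less RNA per cell.

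Background below is the share of all genes called in either direction. In the 4 pathway lists, 0 of 22 genes tested were called in CTCF HET and BORIS KO testis without pairing (background 0.00621% and 0.0551%). With so few calls over all genes, that count says little about the lists. The paired fit, which called 42 and 1077 of all genes there, is not given for the lists. In CM testis 1 was called without pairing (background 25.2%), Morc1, a chromatin protein of transposon silencing (-1.24 ± 0.36, adjusted p = 0.038). In CTCF HET RS, 0 were higher and 6 lower (background 22.3%), led by Morc1 (-1.63 ± 0.26, adjusted p = 0.0051), and with the GC offset 1 was higher and 2 lower. In CTCF HET SC (background 15.5%), 2 were higher, led by Tdrd3 (1.05 ± 0.18, adjusted p = 0.012), and 2 lower, led by Fkbp6, a chaperone of piRNA loading (-1.25 ± 0.25, adjusted p = 0.017; -0.9 and 0.07 with the offset), and with the offset 1 was higher and 0 lower. In BORIS KO RS (background 55.8%), 5 were higher, led by Fkbp6 (1.06 ± 0.21, adjusted p = 0.0021), and 9 lower, led by Tdrd3 (-1.68 ± 0.09, adjusted p = 3.9e-06). With the offset the counts were 5 and 2, and of the 5 higher genes only Fkbp6 and Exd1 were also called higher without it. In BORIS KO SC (background 57.2%) the counts were 6 and 7, again led by Fkbp6 (0.67 ± 0.08) and Tdrd3 (-0.85 ± 0.07), and 10 and 4 with the offset. In CM RS and SC none was called (1 higher and 1 lower in SC with the offset), and for CM against BORIS KO 7 were higher and 1 lower in RS (background 23.2%), and 9 and 6 in SC (background 51.8%). With the offset these were 0 and 0 in RS, and 5 and 4 in SC, where 656 and 4835 of all genes were called. Against WT, the offset fit called 3331 of all genes in CTCF HET RS and 986 in CTCF HET SC. It called 5832 in BORIS KO RS, 6015 in BORIS KO SC and 411 in CM SC.

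The peak lists describe germ cell-enriched preparations, with 1 list per antibody and genotype, so no replicate error can be given. Of the 10 genes, 9 had RNA polymerase II and H3K4me3 peaks within 1 kb of an annotated start in both WT and CM, where 40.2% and 47.3% of annotated genes had one for polymerase II and 52.5% and 57.2% for H3K4me3. Piwil4 was the gene without them. The score of the highest WT polymerase II promoter peak ranged from 617.8 at Tdrd5 to 2014.4 at Tdrd9, and that of the CM list from 325.85 at Tdrd6 to 1753.32 at Piwil1.

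CTCF peaks in the gene or within 2 kb were present at 7 genes in WT (50% of all genes) and at 6 in CM (33.4%), and a BORIS peak at 1 (22.1%). Within 1 kb of a start they were at Tdrd1 and Tdrd7 in WT (27.1% of all genes) and at Tdrd7 in CM (9.59%) and for BORIS (13.8%). The Tdrd7 promoter peak lies in an intron of the longest form, 6851 bp downstream of the gene start and 48 bp from the nearest annotated start, and holds the motif match shown above. Its height was 1989 in the WT CTCF list, where 84% of peaks were at or below it, 138 in the CM list, where 12.1% were, and 137 in the BORIS list, where 73.1% were. The median heights of the lists were 491, 316 and 83.5, and the lists differ in depth and number of peaks, so a lower height is not a measured loss. Tdrd1 had a peak of height 157 at 64 bp upstream of its start in WT, where 21.9% of peaks were at or below it, and none in CM. Both CTCF lists start at a height of 100, so the absence of a low peak from the CM list is not a measured loss.

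The other CTCF peaks lay away from the start. Piwil1 had one about 2 kb upstream in both genotypes, of height 653 in WT and 342 in CM, with no match to the motif. Piwil2 had one in an intron (204 and 307), and Tdrd5 one in an exon 40172 bp downstream of its start (544 and 556). Piwil4 had 2 intronic peaks in each genotype, each with a match. Tdrd7 had a further 2 in WT, of height 107 in an intron and 177 in an exon, 15542 and 64458 bp downstream of the gene start. In the WT list 4.19% and 25% of peaks were at or below them, and neither was in the CM list. Tdrd9 had 3 peaks in WT, of heights 120, 329 and 217, and 1 of height 270 in CM. Ddx4, Tdrd6 and Mael had no CTCF or BORIS peak in these windows.

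**Figure D4:**
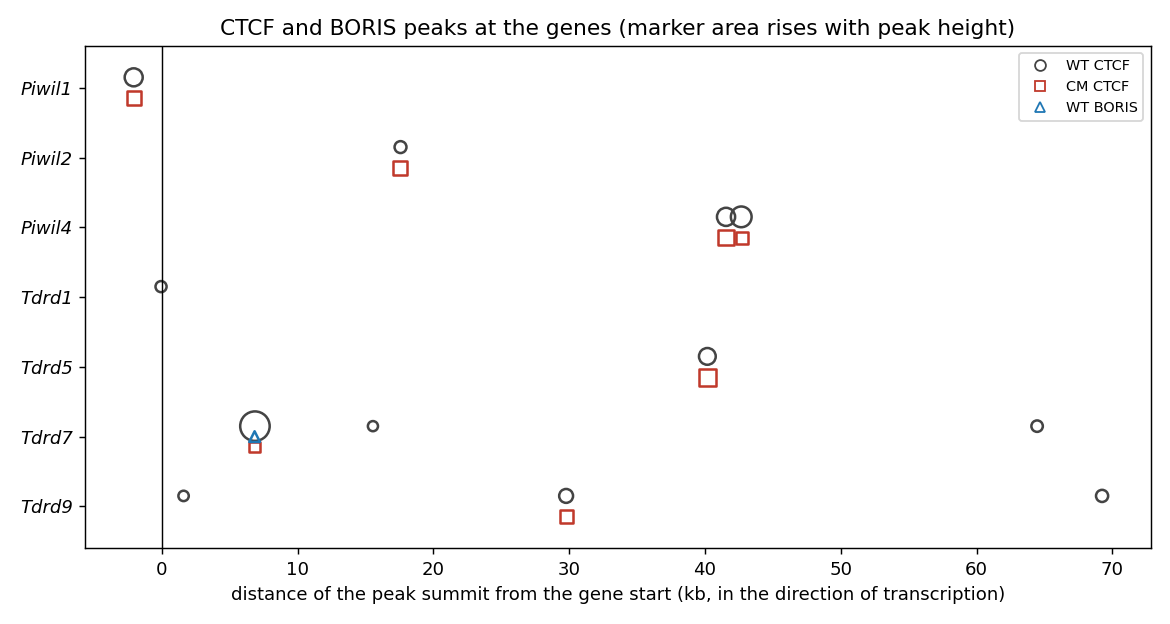
CTCF and BORIS peaks at the 7 genes that had any, by distance of the summit from the gene start (kb, in the direction of transcription). Marker shape and color give the list and marker area rises with peak height. The WT CTCF peak at Tdrd7, of height 1989, is the highest shown, and the 3 lists meet there at 6813 to 6851 bp.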

How the data were processed

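RNA was measured in 35 libraries. The authors aligned the whole testis reads (Ion Proton, single end) with TopHat2 and then Bowtie2 to mm9, and deposited raw counts per gene symbol in 2 tables, 1 for whole testis and 1 for RS and SC. The counting tool, its annotation and its use of strand are not given in the sources used here, so overlapping and antisense genes cannot be told apart. ChIP-seq peak lists came from MACS. The CTCF and BORIS lists as deposited give a signal value, the height of each peak, and the polymerase II and H3K4me3 lists as deposited give a score per peak.

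Counts were tested within each table with edgeR 4.0.16 in R 4.3.3 (TMM scaling, filterByExpr with a minimum count of 10, quasi-likelihood test, Benjamini-Hochberg adjustment over all genes). DESeq2 1.42.0 was an alternative. Each pair of groups was fitted alone, and scripts were tested on simulated data. CPM was computed on TMM-scaled library sizes, 1 scaling per table, and levels are not compared between tables. Exon GC percent and loci came from the mm9 annotation, with a value for 93.1% of genes. Total counts scaling, the GC offset, its combination with the block and the interactions of CTCF HET and BORIS KO were chosen after seeing the data. A promoter peak lies within 1 kb of an annotated start, with an overlap of at least 1 bp. The floor for 0 counts is 3 counts per library and covers counting error only.

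The genes and lists were chosen with earlier results of these data known. All 10 genes are named, and from the other lists the called gene with the smallest p in each direction. Genes of similar pattern are the 3 with the highest correlation among genes with a mean CPM of at least 1 in both tables. Libraries of a group differed by more than counting noise (lowest chi-square per gene 7.22). Library numbers come from the labels, and in whole testis the deviations of same-numbered libraries correlated at 0.14 to 0.62 in each of the 4 comparisons, so those were read as paired, while the purified cells were not. The authors describe independent preparations of 4 mice each for whole testis. For RS and SC, nothing in the sources used here says how the libraries of a group were separated, so those p-values measure the spread between libraries, which may be technical.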

Additional observations from a re-analysis of the deposited data

Results flagged for a closer look

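The effect of CTCF HET against WT differed between RS and SC for 6 genes by the interaction test (edgeR, adjusted over all genes). The difference, RS minus SC on the log2 scale, was 1.14 for Piwil1 (adjusted p = 0.00092), 1.23 for Piwil2 (0.00097), 0.83 for Tdrd5 (0.0066), 0.66 for Tdrd6 (0.01), 0.93 for Tdrd9 (0.0022) and 0.96 for Mael (0.0015). With the GC offset these were 0.27 (0.16), 0.73 (0.0071), 0.83 (0.0031), -0.14 (0.59), 0.24 (0.31) and 0.75 (0.011), so Piwil2, Tdrd5 and Mael stayed called. The median over all genes was 0.33, and -0.03 under RLE scaling. The effect of BORIS KO differed for Piwil1 by 0.36 (adjusted p = 0.046) and for Ddx4 by -0.39 (adjusted p = 0.014). Neither was called with the GC offset (0.22 and 0.01), with the replicate block or with all groups in one fit.

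In 4 cases every mutant library lay on one side of WT in one preparation and on the other side in another, and the difference was not tested, because the preparations were counted in separate tables. The share of all genes that do the same was not computed. The log2 fold change of Piwil1 in CTCF HET was 0.38 in whole testis and -0.45 in SC. Among the values of these cases only that SC value was called, and it was not called with the GC offset. That of Ddx4 in CM was -0.56 in whole testis and 0.4 in SC, the latter 0.03 with the GC offset. That of Tdrd1 in CM was -0.33 in whole testis, 0.36 in RS and 0.1 in SC.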

How the results depend on the processing

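Of 751 alternatives of the 56 called log2 fold changes, 620 kept the call, 123 lost it and 8 changed direction, and 84 of 1674 alternatives of uncalled values became called. With the replicate block, 1 gene was called in BORIS KO testis and 1 in CM testis, and 0 in the BORIS KO interaction. With the block and the GC offset together, 2 were called in each of those testis comparisons. All groups in one fit gave 1 in CM testis, 1 in CTCF HET RS, 1 in CM RS, 4 in CM against BORIS KO RS, 1 in BORIS KO SC, 1 in CM SC, 5 in BORIS KO RS against SC and 0 in the BORIS KO interaction. With the GC offset 1 was called in BORIS KO RS, 2 in CTCF HET SC, 1 in BORIS KO SC, 0 in CM against BORIS KO SC, 3 in the CTCF HET interaction and 0 in that of BORIS KO. It turned Ddx4 to 0.09 in BORIS KO RS, 0.06 in BORIS KO SC, -0.05 in CM against BORIS KO SC, -0.07 in WT RS against SC and 0.01 in the BORIS KO interaction. It turned Piwil1 to 0.08 in CM against BORIS KO SC, Tdrd7 to -0.23 in CTCF HET RS against SC and Tdrd6 to -0.14 in the CTCF HET interaction. Total counts scaling gave 6 calls in CTCF HET RS and 2 in CM against BORIS KO RS, and turned Tdrd1 to 0.04 and Tdrd6 to 0.22 in BORIS KO SC. RLE scaling gave 1 and DESeq2 2 in CM against BORIS KO RS, DESeq2 1 in CM SC, and no low-count filter 1 in CM testis. With a fold above 2 as well, at an adjusted p of 0.05 or 0.001, 0 were called in CTCF HET RS, BORIS KO RS, CTCF HET SC, BORIS KO SC, CM against BORIS KO SC and the BORIS KO interaction, 2 in the CTCF HET interaction and 5 in BORIS KO RS against SC. The cause was not tested.

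Leaving out 1 library gave 0 to 2 calls in CM testis (2 without CM replicate 2), 1 to 5 in CTCF HET RS (5 without WT replicate 1, 1 without WT replicate 2, WT replicate 3 or CTCF HET replicate 1), 0 to 2 in CM against BORIS KO RS (2 without CM replicate 1 or 2) and 3 to 6 in BORIS KO RS. In SC it gave 0 to 5 in CTCF HET (1 without WT replicate 2, 0 without CTCF HET replicate 2), 3 to 6 in BORIS KO (3 without WT replicate 1), 0 to 5 in CM (5 without CM replicate 1) and 2 to 8 in CM against BORIS KO (8 without CM replicate 1, 2 without BORIS KO replicate 2 or 3 or CM replicate 3, 3 without CM replicate 2). For RS against SC the counts were 5 in CM, 6 to 7 in CTCF HET and 6 to 8 in WT and in BORIS KO. The CM interaction gave 0 to 1 (1 without CM RS replicate 2), that of CTCF HET 4 to 6, and that of BORIS KO 0 to 6 (6 without WT RS replicate 1, 0 without WT RS replicate 2 or 3 or WT SC replicate 2, 1 without BORIS KO RS or SC replicate 2, BORIS KO RS replicate 1, BORIS KO SC replicate 3 or WT SC replicate 1). Without WT SC replicate 1 or 2, the lone WT SC library was assumed to vary like the other group. The share of all genes called without each library is not given, so the counts with a library left out are a description only.

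A window of 2 kb put CTCF promoter peaks at 4 genes in WT and 2 in CM, and the upper 50% of heights left 1 and 0, and 4 and 3 in the gene or within 2 kb. With 50% of the peak inside the window, 4 genes had a promoter peak for polymerase II in WT, 4 in CM and 4 for H3K4me3 in CM. Over all genes the share of calls that were higher moved with total counts scaling from 65.1% to 91.2% in CM testis, where the median of all genes moved from 0 to 0.43. It moved from 42.6% to 58.8% in CTCF HET RS, 48.1% to 68.4% in BORIS KO RS, 53.1% to 36.1% in CM against BORIS KO RS, 50.9% to 71.6% in BORIS KO SC, 62.9% to 79.9% in CM SC and 22.4% to 61.9% in the BORIS KO interaction. With RLE scaling it moved from 43.6% to 54.4% in CTCF HET SC and from 68.4% to 46.1% in the CTCF HET interaction. The replicate block called 42 genes of all in CTCF HET testis where the unblocked fit called 1, 1077 against 9 in BORIS KO, 7043 against 4135 in CM and 1225 against 1 in CM against BORIS KO. With the GC offset 5832 genes were called in BORIS KO RS against 8658, 656 against 3613 in CM against BORIS KO RS, 986 against 2119 in CTCF HET SC, 411 against 89 in CM SC and 4835 against 7403 in CM against BORIS KO SC. Depth limits Piwil4, while the other 9 genes passed the low-count filter in each of the 19 comparisons.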
